A study of Homo sapiens with 19 samples.

Results

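The AP-1 family genes examined here are 10 genes chosen by name, JUN, JUNB, JUND, FOS, FOSB, FOSL1, FOSL2, MAFF, ATF3 and BATF3, out of 20037 protein-coding genes in the RefSeq table of GRCh38.p14. Each was placed by its RefSeq position and compared with superenhancers, which are broad domains dense in acetylated histone H3 lysine 27 (H3K27ac), and with peaks of the transcription factor OCT-2, the product of POU2F2. The series holds 19 ChIP-seq samples of triple-negative breast cancer cells. Only the hg38 lists, made from 3 groups of 2 replicates each, could be set against these gene positions. The 231Pa_Luc+OCT-2 cells are a polyclonal population of parental MDA-MB-231 cells, a human line of mesenchymal type, with stable luciferase and POU2F2 transgenes. The control, 231Pa_Luc+GFP, is polyclonal too and carries luciferase and GFP, so luciferase is common to all cells used. The labels do not name the promoter that drives the transgenes. H3K27ac was precipitated in both populations and OCT-2 in the OCT-2 cells. The series holds no OCT-2 ChIP of the control cells, so binding of the endogenous and of the forced protein cannot be told apart.

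The lists held 518 superenhancers for Luc+OCT-2, 337 for Luc+GFP and 5736 OCT-2 peaks on the main chromosomes. A Luc+OCT-2 region that overlapped a Luc+GFP region was called shared (314 regions) and the remaining 204 were called Luc+OCT-2-only; 29 regions were Luc+GFP-only. Each list is the authors' single result from 2 replicates. It carries no reads, heights or values per replicate, so depth and replicate spread are unknown and no difference below has a test. As a check of the cell type, 7 of 8 mesenchymal markers (VIM, CD44, AXL, EGFR, S100A4, ITGB1 and MMP14, without CAV1) met a superenhancer of both lists within 10 kb. None of 10 luminal markers and none of 7 leukocyte markers did so in either list; of 6 fibroblast and endothelial markers, PECAM1 met a Luc+GFP region.

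AP-1 is a family of dimeric transcription factors that bind DNA through a basic region and a leucine zipper. JUN proteins pair with each other or with FOS proteins, FOS proteins need a JUN partner, and the ATF, BATF and small MAF proteins pair with some of these. FOS, FOSB, JUN, JUNB and ATF3 are classical immediate-early genes that growth factors and stress switch on within minutes. FOSL1, which encodes FRA-1, is well known from invasive, mesenchymal breast cancer cells.

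Superenhancers overlapped 6 of the 10 genes in the OCT-2 cells and 5 in the control cells, against 5.27% and 3.94% of all protein-coding genes. JUND, FOSB, FOSL1, FOSL2 and MAFF did so in both lists, JUN in the Luc+OCT-2 list alone, and JUNB, FOS, ATF3 and BATF3 in neither. These counts depend on list length and on the assignment of genes. With the Luc+OCT-2 list limited to its 337 widest regions, JUN met no region and MAFF a control region alone. With each region given to its nearest coding gene, 3 members (JUN, FOSL2 and MAFF) met a Luc+OCT-2 region and 2 (JUN and FOSL2) a Luc+GFP region. Under that rule a list can call no more genes than it has regions. The share of all genes was not computed for either setting, so the percentages given here do not apply to these counts. With the gene body extended by 10 kb on either side, the main setting, the counts were 6 of 10 for Luc+OCT-2 against 5.74% of all protein-coding genes. For Luc+GFP they were 5 of 10 against 4.31%. Shared regions were met by 5 members against 3.87% of all genes, and Luc+OCT-2-only regions by 1 member, JUN, against 1.93%. Luc+GFP-only regions were met by 0 members, against 0.245%. Extending by 50 kb left Luc+OCT-2 at 6 of 10 (7.92% of all genes) and raised Luc+GFP to 6 of 10 (5.81%), through JUN. At 200 kb both counts remained at 6, while 15.8% and 11.8% of all genes met a region. All 6 members at a superenhancer therefore overlapped it in the OCT-2 cells with no extension at all. The nearest member outside was JUNB, 203 kb from a Luc+OCT-2 region and 202 kb from a Luc+GFP region, just past the widest window. The comparison genes were not matched for expression, so silent genes are among them, and the members were chosen with these positions known.

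**Figure D1:**
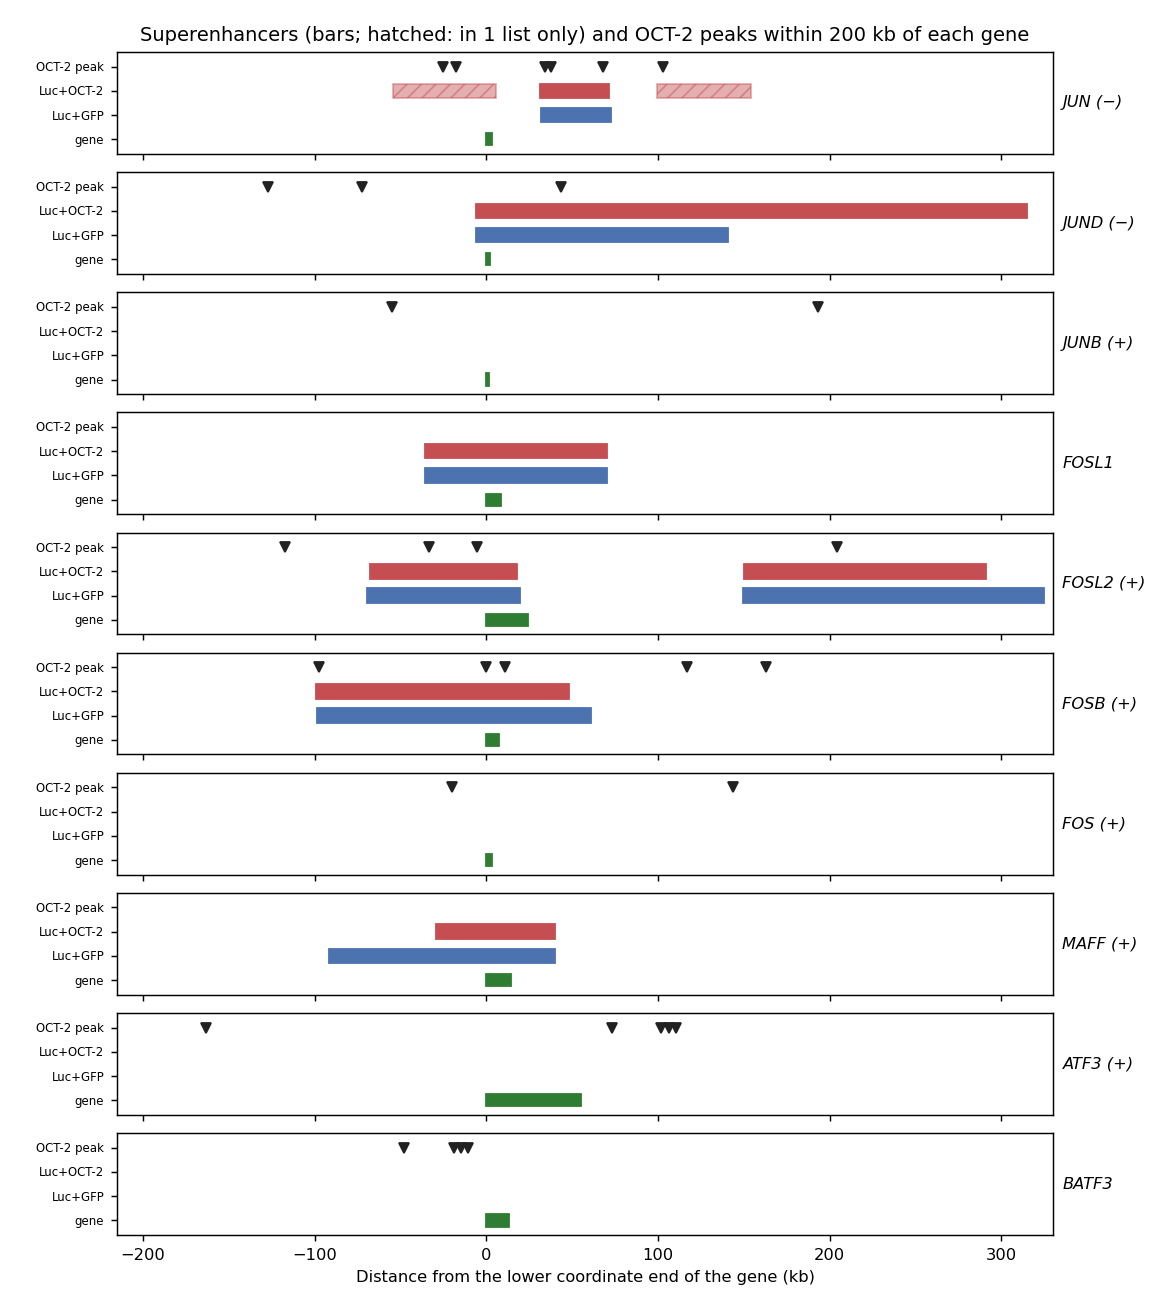
Superenhancers of the Luc+OCT-2 (red) and Luc+GFP (blue) lists and OCT-2 peaks (triangles) within 200 kb of each gene (green), with distance in kb from the gene's lower coordinate end on the x axis and the strand in brackets where the promoter table gives it. Hatched bars are regions of 1 list alone: JUN has 2 of them, on either side of its shared region, while JUNB, FOS, ATF3 and BATF3 have no bar.

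JUN (gene ID 3725, chromosome 1, 58780791 to 58784047, minus strand) encodes the founding JUN protein. It had the most divided locus, with 3 superenhancers in the OCT-2 cells and 1 in the control cells within 200 kb. The first Luc+OCT-2 region (chromosome 1, 58726660 to 58786454) was 59.8 kb wide, covered the whole gene and had no counterpart in the control list. It reached 54.1 kb past the 3′ end of the gene and 2.41 kb upstream of its start. The second (58812207 to 58852263, 40.1 kb) began 28.2 kb upstream of JUN and matched the only control region (58812485 to 58853492, 41.0 kb), with 99.3% of its length inside it. The third (58880453 to 58934931, 54.5 kb) began 96.4 kb upstream and was again in the Luc+OCT-2 list alone. Gaps of 25.8 kb and 28.2 kb separated the 3 regions. Within 200 kb of JUN, superenhancers thus covered 154 kb with forced OCT-2 and 41.0 kb with GFP. No other protein-coding gene overlapped any of them. JUN-DT, the divergent long noncoding RNA gene of JUN (chromosome 1, 58785151 to 58899712, 115 kb), overlapped all 3.

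The class of JUN depended on the window. With no extension or 10 kb, JUN met 1 Luc+OCT-2-only region and no control region. At 50 kb it met that region and the shared one, so it counted in both lists; 2.71% of all genes met a Luc+OCT-2-only region at this width and 5.35% a shared one. At 200 kb it met 2 Luc+OCT-2-only regions, where 5.73% of all genes met any, and 1 shared region. The switch came between 28.2 kb, where the shared Luc+OCT-2 region begins, and 28.4 kb, where its control counterpart does. The other 9 members stood in the same class at 0, 10, 50 and 200 kb. JUN was singled out with this switch already known, so the shares that follow are description and no evidence about JUN. Over all genes, 404 protein-coding genes (2.02%) met the Luc+OCT-2 list alone at 10 kb. Of these, 23 (5.69%), or 0.115% of all genes, met both lists at 50 kb. At 200 kb 86 of the 404 (21.3%) met both. A cluster of 3 or more Luc+OCT-2 regions within 200 kb occurred at 61 genes (0.304%). Of the 204 Luc+OCT-2-only regions, 15 (7.35%) had a shared Luc+OCT-2 region within 50 kb, and the median distance was 1860 kb. All 3 JUN regions were narrow for their list, at ranks 381, 461 and 410 of 518 by width, so none was among the 337 widest.

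**Figure D2:**
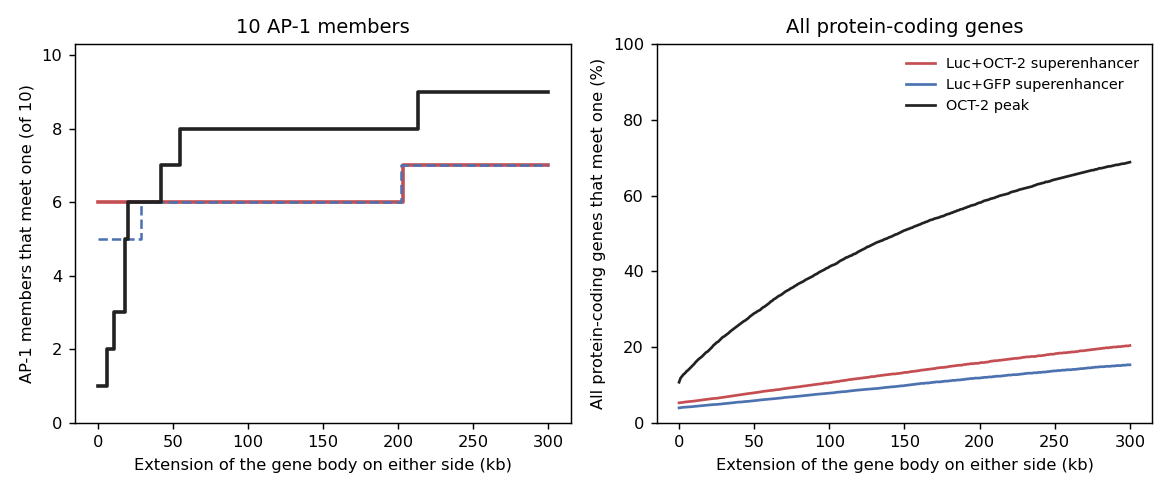
Left, the number of the 10 AP-1 members that meet a Luc+OCT-2 superenhancer (red), a Luc+GFP superenhancer (blue, dashed) or an OCT-2 peak (black), against the extension of the gene body in kb; right, the percentage of all 20037 protein-coding genes. The Luc+GFP line steps from 5 to 6 members past 28.4 kb, where JUN joins, while the Luc+OCT-2 line is at 6 from 0 kb.

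JUND and JUNB are the other JUN genes. JUND (gene ID 3727, chromosome 19, 18279694 to 18281622, minus strand), which is known for steady rather than induced expression, lay near the lower edge of a shared superenhancer. The lower edges were 61 bp apart, but the upper edge lay 174 kb farther in the OCT-2 cells. The region was 321 kb wide with forced OCT-2 (18273783 to 18594727, rank 4 of 518) and 147 kb wide with GFP (18273722 to 18420454, rank 87 of 337). It overlapped 14 protein-coding genes in the former and 7 in the latter, the nearest being IQCN, LSM4 and PGPEP1. JUNB (gene ID 3726, chromosome 19, 12791486 to 12793315, plus strand), an immediate-early gene, had no superenhancer within 200 kb in either list.

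Among the FOS genes, FOSL1 had the most closely matching regions. FOSL1 (gene ID 8061, chromosome 11, 65892049 to 65900545) lay inside a region of 106 kb in both lists, from 65856519 to 65962429 in the OCT-2 cells, and both edges were within 184 bp of the control. The region overlapped 11 protein-coding genes, and CCDC85B, FIBP and CTSW were the nearest to FOSL1. FOSL2 (gene ID 2355, chromosome 2, 28392858 to 28417317, plus strand), the gene of FRA-2, had a region of 85.8 kb with forced OCT-2 (28325238 to 28411034) and of 88.7 kb with GFP. That region covered 74.3% of the gene, from the start onward, in the OCT-2 cells and 79.5% in the control cells. In both lists it also overlapped BABAM2. A second shared region, at PLB1, began 126 kb past FOSL2 in the Luc+OCT-2 list and 125 kb past it in the Luc+GFP list. FOSB (gene ID 2354, chromosome 19, 45467996 to 45475179, plus strand) lay in a region of 147 kb with forced OCT-2 (45368840 to 45516077) and of 160 kb with GFP, beside RTN2, PPM1N and ERCC1. FOS itself (gene ID 2353, chromosome 14, 75278828 to 75282230, plus strand) was far from any region, 656 kb from the nearest of the OCT-2 cells and 2599 kb from the nearest of the control cells.

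MAFF (gene ID 23764, chromosome 22, 38201994 to 38216511, plus strand) encodes a small MAF protein, which has a leucine zipper but no activation domain. Its region was narrower in the OCT-2 cells, 69.4 kb (38172489 to 38241904) against 132 kb in the control cells (38110334 to 38241955). The upper edges were 51 bp apart and the lower edge was 62.2 kb nearer to the gene in the OCT-2 cells. TMEM184B and PLA2G6 met the same regions. ATF3 (gene ID 467, chromosome 1, 212565407 to 212620777, plus strand), a stress-induced member, and its neighbour BATF3 (gene ID 55509, chromosome 1, 212686417 to 212699840), best known from dendritic cells, were 1766 kb and 1687 kb from the nearest Luc+OCT-2 region. The medians were 1549 kb over 19974 protein-coding genes for Luc+OCT-2 and 2517 kb over 19636 for Luc+GFP. Genes on chromosomes with no region of the list have no distance and were left out.

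The regions of JUND and MAFF differed in width in opposite directions, and the shared regions over FOSB, FOSL1 and FOSL2 were closer to equal width. Over 297 pairs with a single region in each list, the Luc+OCT-2 width divided by the Luc+GFP width had a median of 0.996, and the middle 90% ran from 0.491 to 1.38. The ratio was 2.19 for JUND, the fifth highest of the 297; 6 pairs (2.02%) were above 2. It was 0.527 for MAFF, at rank 278, 0.922 for FOSB, 0.967 for FOSL2 and 0.997 for FOSL1. Of the shared regions beside a member, that upstream of JUN had a ratio of 0.977 and that at PLB1, 141 kb against 176 kb, a ratio of 0.802. The lists give no spread of the edges between replicates, so whether the edges at JUND and MAFF differ beyond it was not tested.

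**Figure D3:**
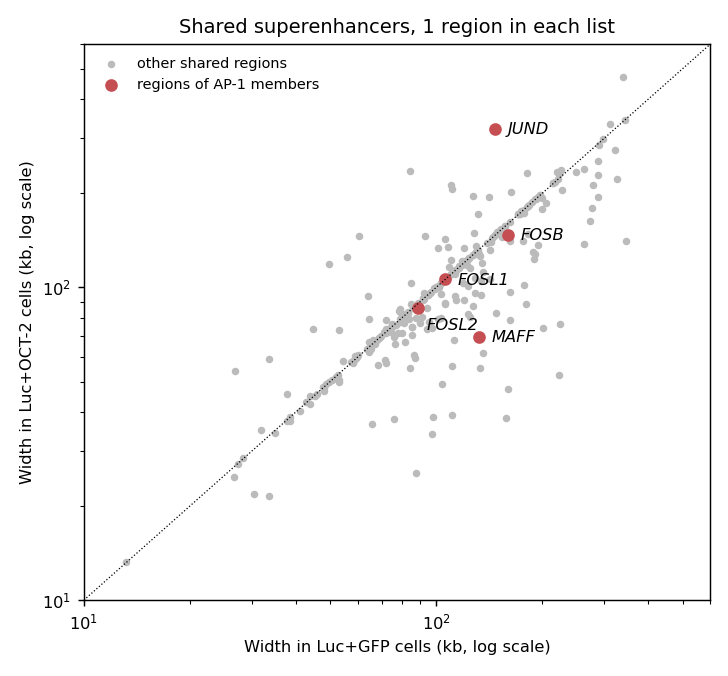
Width of each shared superenhancer in the Luc+OCT-2 cells (y axis, kb, log scale) against the Luc+GFP cells (x axis, kb, log scale) for 297 pairs with 1 region in each list; the dotted line marks equal width. JUND (321 against 147 kb) lies above the line and MAFF (69.4 against 132 kb) below it, while FOSB, FOSL1 and FOSL2 lie near it.

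The nearest OCT-2 peak lay within 10 kb of 2 AP-1 genes and between 10 and 50 kb from another 5. A peak overlapped the gene body at 1 member, FOSB, against 10.7% of all protein-coding genes. Within 10 kb there was a peak at 2 members, FOSB and FOSL2, against 15.5%, a share near the background. Within 50 kb there were peaks at 7 members (JUN, JUND, FOS, FOSB, FOSL2, ATF3 and BATF3), against 28.9%, and within 200 kb at 8, with JUNB added, against 58.1%. FOSL1 and MAFF had 0 peaks in that window, and their nearest peaks were 212 kb and 424 kb away. The median number of peaks per gene within 50 kb was 1.50 for the members and 0 for all genes, and within 200 kb 3.50 and 1.00. The members share some of these peaks, so 27 distinct peaks stand behind the 8 genes at 200 kb, and 13 of the 27 lay inside a Luc+OCT-2 superenhancer. Some members lie just on either side of a limit: BATF3 had its nearest peak at 10.5 kb, JUND at 41.6 kb and JUNB at 54.4 kb.

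**Figure D4:**
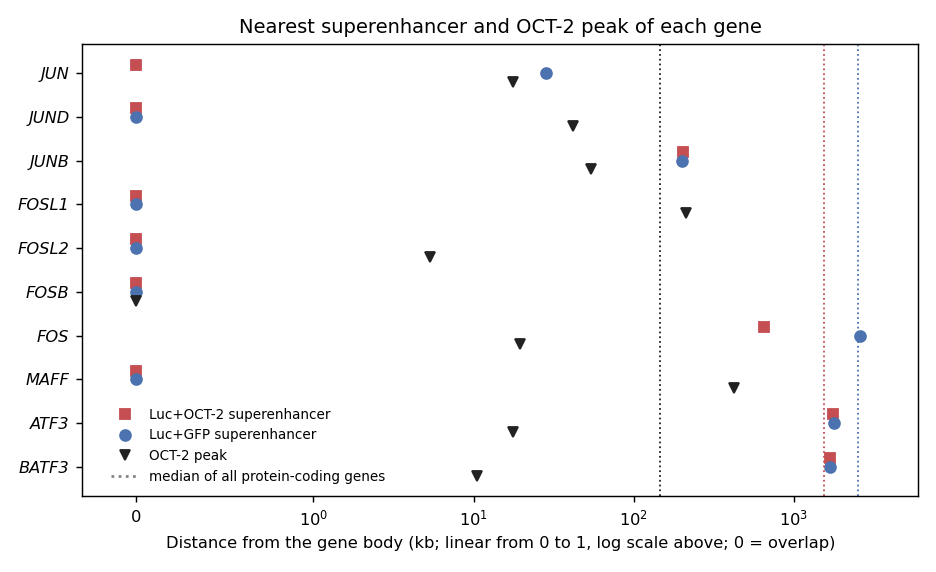
Distance in kb (linear up to 1, log scale above) from each gene body to the nearest Luc+OCT-2 superenhancer (red squares), Luc+GFP superenhancer (blue circles) and OCT-2 peak (black triangles). Dotted lines mark the medians of the protein-coding genes on chromosomes that hold such a region or peak. FOSB has all 3 at 0 kb, JUN has its control superenhancer at 28.4 kb, and FOSL1 and MAFF have superenhancers at 0 kb but peaks at 212 and 424 kb.

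FOSB was the only member with an OCT-2 peak over its start. The peak (chromosome 19, 45467844 to 45468160, 317 bp) had its centre 6 bp from the annotated start, and a promoter window of 250 bases before to 50 after a start met a peak at 1.77% of 22049 promoters of protein-coding genes. A second FOSB peak (45478710 to 45479012) lay 3.53 kb past the 3′ end, and another was at the far end of the superenhancer, within ERCC2. FOSL2 had a peak (chromosome 2, 28387289 to 28387544) 5.31 kb upstream and another 33.2 kb upstream, both inside its superenhancer. The latter peak was nearer to BABAM2, at 20481 bp. JUN had 6 peaks within 200 kb and none within 10 kb. Of these, 2 lay in the region over the gene (17.7 and 25.1 kb past its 3′ end), 3 in the shared upstream region and 1 in the region farthest upstream, so all 6 were inside Luc+OCT-2 superenhancers. The shared JUN region held 74.9 peaks per Mb, from 3 peaks in 40.1 kb, against a median of 16.2 over all Luc+OCT-2 regions. It is not among the 6 Luc+OCT-2 regions within 10 kb of a member, whose median was 13.3 peaks per Mb.

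Peaks near the remaining members were mostly outside superenhancers or nearer to another gene. The superenhancer of JUND held 2 peaks in the OCT-2 cells, the closer of which lay 41.6 kb from JUND and 133 bp from LSM4. The FOS locus had a peak 19.5 kb upstream of FOS (chromosome 14, 75258989 to 75259296), for which FOS was the nearest coding gene, and another 4531 bp from JDP2. ATF3 and BATF3 share a group of 4 peaks between them, 3 of which were nearest to BATF3 at 10.5, 14.6 and 18.9 kb. The JUNB peaks were nearest to other genes, GET3 at 59 bp and DAND5 at 9922 bp. Of the 6 member superenhancers of the OCT-2 cells, 4 held a peak (JUN, JUND, FOSB and FOSL2), against 78.4% of all 518, and those of FOSL1 and MAFF held 0.

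The promoters of FOSB, JUND and JUN are shown because FOSB has an OCT-2 peak, JUND an octamer and JUN a change of class. Each is the 250 bases before the gene start, 5′ to 3′ on the gene's strand, from RefSeq (GRCh38.p14). Capitals mark matches to the octamer ATGCAAAT, the classical OCT-2 site, or to the cAMP response element TGACGTCA, which JUN and ATF dimers can bind. FOSB is chr19:45467746-45467995 on the plus strand, and its last 152 bases lie under the OCT-2 peak. JUND is chr19:18281623-18281872 and JUN chr1:58784048-58784297, both on the minus strand and neither under a peak.
FOSB: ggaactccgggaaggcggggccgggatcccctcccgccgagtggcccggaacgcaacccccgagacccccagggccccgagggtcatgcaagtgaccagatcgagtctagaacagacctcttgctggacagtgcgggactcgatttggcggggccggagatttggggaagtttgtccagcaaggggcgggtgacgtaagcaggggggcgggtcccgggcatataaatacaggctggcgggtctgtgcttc
JUND: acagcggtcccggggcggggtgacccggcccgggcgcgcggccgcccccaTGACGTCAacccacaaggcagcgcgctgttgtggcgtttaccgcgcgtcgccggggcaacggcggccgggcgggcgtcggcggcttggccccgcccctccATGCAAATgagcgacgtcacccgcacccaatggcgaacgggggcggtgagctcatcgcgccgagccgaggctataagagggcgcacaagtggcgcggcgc
JUN: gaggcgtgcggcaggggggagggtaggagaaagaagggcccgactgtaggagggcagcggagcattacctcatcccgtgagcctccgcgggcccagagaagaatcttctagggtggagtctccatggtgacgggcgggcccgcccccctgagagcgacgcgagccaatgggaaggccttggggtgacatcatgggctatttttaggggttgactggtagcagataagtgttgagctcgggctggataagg

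The octamer was in the JUND promoter, where there was no OCT-2 peak, and not in the FOSB window under the peak. Counting the start as 0, the JUND octamer begins at -100 and its cAMP response element at -200. The search covered both strands of the full 300-base windows, for the octamer, the cAMP response element, the AP-1 site TGANTCA and the CArG box of the serum response factor. No match of one motif overlapped another. Promoter windows were given for 8 of the 10 members, without FOSL1 and BATF3, and ATF3 and MAFF have 2 starts each. MAFF had a cAMP response element at -54 and FOSL2 an AP-1 site at 4, and JUN, JUNB, FOS, FOSB and ATF3 had no match to the 4 motifs. Variants of the motifs did not count, such as TGACATCA in the JUN promoter shown. Sequence outside the windows was not searched, so these promoters may hold variant or more distant sites. Over all 22049 promoters, the octamer was in 1.66%, the cAMP response element in 2.25%, the AP-1 site in 6.16% and the CArG box in 1.25%. An OCT-2 peak lay over 67 of 366 promoters with an octamer (18.3%) and 323 of 21683 without (1.49%). JUND is thus among the 299 octamer promoters without a peak, and FOSB among the 323 peak promoters without an octamer in this window.

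Genes around AP-1 in the pathway were at superenhancers mainly among the feedback phosphatases, the other immediate-early genes and AP-1 targets. Of 11 dual-specificity phosphatases and other feedback inhibitors of MAP kinase signalling, 5 met a Luc+OCT-2 region within 10 kb: DUSP1, DUSP4, DUSP6, DUSP7 and SPRY4. All but DUSP4 met a control region too; DUSP4, at a Luc+OCT-2-only region, was 139 kb from the nearest. Of 12 other immediate-early genes, 4 did so in both lists, namely IER2, IER3, KLF6 and CCN1. Of 20 textbook AP-1 targets, 5 met a Luc+OCT-2 region (PLAU, CXCL8, CD44, HBEGF and LIF). All of these but the chemokine gene CXCL8, at a Luc+OCT-2-only region, met a control region. A region of either list lay within 10 kb of 0 of 18 relatives of the basic leucine zipper class and 0 of 16 upstream kinases. In lists this small, counts of 0 are near the 5.74% and 4.31% of all genes given above. The counts of 5 of 11, 4 of 12 and 5 of 20 at a Luc+OCT-2 region were above 5.74%. These lists were chosen with earlier results known, and no test was run. Of 9 factors that act on the FOS and JUN promoters, ELK3 alone met a region within 10 kb, a Luc+OCT-2-only one. Luc+OCT-2-only regions, as at DUSP4, CXCL8 and ELK3, were met by 1.93% of all genes.

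OCT-2 peaks were counted in the same lists, which are too small for counts of a few genes to rank them. A peak lay within 10 kb of 4 of the 9 promoter factors (SRF, ELK3, MRTFA and MEF2D) and of 5 of the 18 relatives (JDP2, CREB5, MAFA, BACH1 and BACH2), against 15.5% of all genes. It did so at 3 of 16 kinases (MAPK10, MAPK14 and MAP3K5), 1 of 11 feedback genes (SPRY4) and 3 of 12 other immediate-early genes (IER2, MYC and CCN2). The peak overlapped the gene body at CREB5, BACH1, BACH2, MAPK10, MAP3K5, SRF, ELK3, MRTFA, SPRY4 and MYC; gene length was not matched between the lists. At 50 kb, where 28.9% of all genes had a peak, it was 7 of the 10 members, 6 of 9 promoter factors, 6 of 12 other immediate-early genes, 8 of 18 relatives, 5 of 16 kinases and 3 of 11 feedback genes.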

How the data were processed

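The authors' deposited files are lists of intervals (chromosome, start, end, and a name that holds the number of merged calls), which per the labels were calculated from replicates 1 and 2. Builds hg19 and hg38 and the tools HOMER, bedtools, Bowtie and Bowtie2 2.2.2.6 appear in the submitters' processing notes, with neither roles nor calling thresholds. Only the 3 lists with hg38 in their names were used, since the gene table is of GRCh38.p14 and no coordinates were converted; 7 lists were not analysed here. 5 of 5741 OCT-2 peaks on unplaced contigs were left out. Positions are 1-based.

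A gene met a region when its body, extended by 10 kb (also 0, 50 and 200 kb), overlapped it by 1 bp or more. The gene table holds no exons; strands and starts came from the promoter table. All 86 genes of the fixed pathway lists and 31 markers were matched. Genes were named as follows: all members, the nearest coding genes of their regions, and listed genes at a superenhancer or within 10 kb of a peak; peaks at the AP-1 targets are not reported here. The members and lists were chosen with earlier results of these data known, so counts stand beside the share of all protein-coding genes and no test was run. Whether the replicates are separate cultures is not stated in the labels. The interval functions were tested on simulated data. Python 3.11.15, numpy 2.4.6, pandas 2.3.3 and matplotlib 3.10.9 were used.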

Additional observations from a re-analysis of the deposited data

How the results depend on the processing

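Counts were compared and not the names behind them, so a count can stay while a member such as JUN changes class. Of 47 recomputed values, 35 stayed within 1.5 times of the reported one and 12 did not. Of these, 4 came from the window for peaks: 1 member without extension, 1 at 5 kb, 7 at 50 kb and 8 at 200 kb, against 2 at 10 kb. With only the 337 widest Luc+OCT-2 regions (69.6 kb or wider), JUN and MAFF (69.4 kb) lost theirs, so Luc+OCT-2-only regions were met by 0 members and Luc+GFP-only regions by 1, MAFF. Without regions under the median width of their list, 3 members met a shared region and 1, MAFF, a Luc+GFP-only region, while the 1 member at a Luc+OCT-2-only region was FOSL2 and no longer JUN. The FOSL2 change reflects unequal limits, since the medians were 84.9 kb for Luc+OCT-2 and 105 kb for Luc+GFP. Its Luc+OCT-2 region of 85.8 kb was kept and the matching Luc+GFP region of 88.7 kb left out. When each region was given to its nearest coding gene alone, 3 members met a Luc+OCT-2 region and 3 a shared one (JUN, FOSL2 and MAFF), 2 met a Luc+GFP region, and 6 of 10 members kept their class. Shares of all genes were not computed for the settings by width or by nearest gene. Requiring 50% of the narrower region for sharing changed no class. No paired analysis was possible because the lists pool both replicates, and for the same reason none was left out in turn. The depth of the libraries is unknown.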
